A study of Mus musculus with 7 samples.

Results

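The 10 genes described here belong to the circadian clock and were read in RNA sequencing libraries of T-cells, 4 of ORP4L KI animals and 3 of littermates without the knock-in, called wild-type (WT). They are Per1, Per2, Per3, Cry1, Cry2, Arntl, Clock, Nr1d1, Nr1d2 and Dbp, and these 10 symbols were taken from the 25033 genes that each library lists. The set was built around Per2 because Per2 read higher in every ORP4L KI library, so the difference of the members between genotypes is a description. The fit over all genes included the members, and which of them passed its thresholds is stated without p-values. Nothing is read from those calls. All 10 members passed the filter on low counts and are among the 13462 genes tested.

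Both groups were C57BL/6J mice aged 15 months, and each mouse gave 1 library. The knock-in is the human ORP4L coding sequence, placed in the Rosa26 locus behind a CAG promoter and a loxP-flanked stop cassette, which Cre driven by the Lck promoter removes in T-cells. The study describes the ORP4L KI mice as moribund when their T-cells were taken, so genotype and state of health cannot be told apart. The methods describe T-cells from blood or spleen, a kit for naive CD4+ T-cells and a daily cycle of light and dark. Which tissue each library came from and the time of day at sampling are not given in the sources used here, and the clock genes follow that time in most tissues.

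The mammalian clock is a transcription and translation loop. ARNTL (also called BMAL1) and CLOCK pair as the activator that binds E-box elements, and PER and CRY proteins, made from E-box genes, enter the nucleus and repress it. NR1D1 and NR1D2 (REV-ERB alpha and beta) form a second loop that represses Arntl through ROR elements, and DBP carries the rhythm to D-box genes. T-cells hold such a clock, and Per1 and Per2 also answer to glucocorticoid hormones. The activator arm below is Arntl and Clock, and the repressor and output arm is the other 8 members.

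The elements that tie these genes together were looked up in RefSeq promoters of assembly GRCm38.p6, which is the assembly of the mm10 build that the submitters name. A promoter was available for 9 of the 10 members, all but Per2. The 250 bases before each start were searched on both strands for the E-box CACGTG, which reads the same on both strands, the D-box TTATGTAA and the ROR element AGGTCA. The 3 stretches shown first are the members in which an E-box or D-box was found, and Ciart, a further clock repressor, is shown for its 3 E-boxes. Capitals mark the E-box in Per1, Cry1 and Ciart and the D-box in Per3.

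Per1, chr11:69098763-69098808, plus strand: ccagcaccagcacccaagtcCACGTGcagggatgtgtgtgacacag
Cry1, chr10:85185089-85185134, minus strand: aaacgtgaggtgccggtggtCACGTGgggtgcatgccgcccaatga
Per3, chr4:151044796-151044890, minus strand: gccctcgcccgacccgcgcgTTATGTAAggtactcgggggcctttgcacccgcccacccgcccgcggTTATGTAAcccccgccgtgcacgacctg
Ciart, chr3:95882247-95882364, minus strand: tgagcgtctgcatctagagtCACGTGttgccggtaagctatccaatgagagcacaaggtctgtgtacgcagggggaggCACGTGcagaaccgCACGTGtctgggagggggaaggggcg

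The E-box of Per1 begins 166 bases before 1 of its 2 starts searched, and that of Cry1 60 bases before its start. The D-boxes of Per3 begin 205 and 158 bases before the start. In Ciart the E-boxes begin 116, 58 and 44 bases before it. Of all 32851 windows of 250 bases, 6.02% held the E-box, 0.819% the D-box and 14.0% the ROR element. The ROR element was matched before a start of Per1, Clock and Nr1d2, but in this window before neither start searched for Arntl. For Per1, Clock and Arntl the upstream end of the gene span given below lies outside the windows searched. These are matches of letters in a short window and not measured sites.

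The libraries held 12918187 to 15912921 reads in WT and 16757959 to 19665679 in ORP4L KI. Reads listed under Osbp2, the mouse gene of ORP4L, numbered 0, 0 and 1 in WT and 188, 742, 155 and 443 in ORP4L KI, which is at least 95.3-fold higher when WT is set at 3 reads per library (edgeR quasi-likelihood test, adjusted p = 0.0471, and 0.0055 to 0.202 with 1 library left out). The call was lost without WT replicate 1, 2 or 3 and without ORP4L KI replicate 4. All 9 T-cell markers listed, of 12 looked for, were detected in every library, at a summed 0.188% to 0.270% of the reads in WT and 0.0929% to 0.342% in ORP4L KI. The 14 granulocyte markers, also detected in every library, summed to 0.273% to 0.571% in WT and 1.14% to 12.2% in ORP4L KI. Erythroid markers summed to 1.08% to 1.85% in WT and 0.115% to 0.845% in ORP4L KI, and dendritic cell markers to 0.0537% to 0.0747% and 0.0119% to 0.0262%. Levels below are CPM, the count of a gene relative to the library's total count, scaled between libraries by TMM, a factor from the bulk of genes, and values are listed for replicates 1 to 3 of WT and 1 to 4 of ORP4L KI. In T-cells sequenced in bulk, fewer cells that express a gene and less RNA per cell cannot be told apart.

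Per2, the gene around which the set was built, had the largest log2 fold change of the members. Per2 (chromosome 1, 91415977 to 91459351, minus strand), a PER protein gene, was at 9.63, 8.93 and 13.3 CPM in WT and at 36.8, 16.6, 28.1 and 29.9 CPM in ORP4L KI. Every ORP4L KI library lay above every WT library, with ORP4L KI replicate 2 and WT replicate 3 the nearest across the groups. The means were 10.6 ± 2.37 CPM (SD, n = 3) and 27.9 ± 8.39 CPM (SD, n = 4), a ratio of 2.62 and a fitted log2 fold change of 1.39 with a standard error of 0.30. Of the 10 members, Per2 alone passed an unadjusted p under 0.01 with a log2 fold change over 1, thresholds that 4.68% of all genes tested passed in either direction and 2.38% (320 of 13462) upward. By the edgeR quasi-likelihood test no member passed an adjusted p under 0.05, which 0.0223% of all genes did, and 2 members passed an unadjusted p under 0.05, which 13.7% of all genes did. DESeq2's Wald test called 1 member at an adjusted p under 0.05, Per2, and 5.83% of all genes. Without ORP4L KI replicate 2 the edgeR test also called Per2, with 2.56% of all genes. Of all genes tested, 2.96% had a log2 fold change at least as high as that of Per2. Since Per2 was picked on this contrast, nothing is read from these shares.

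**Figure D1:**
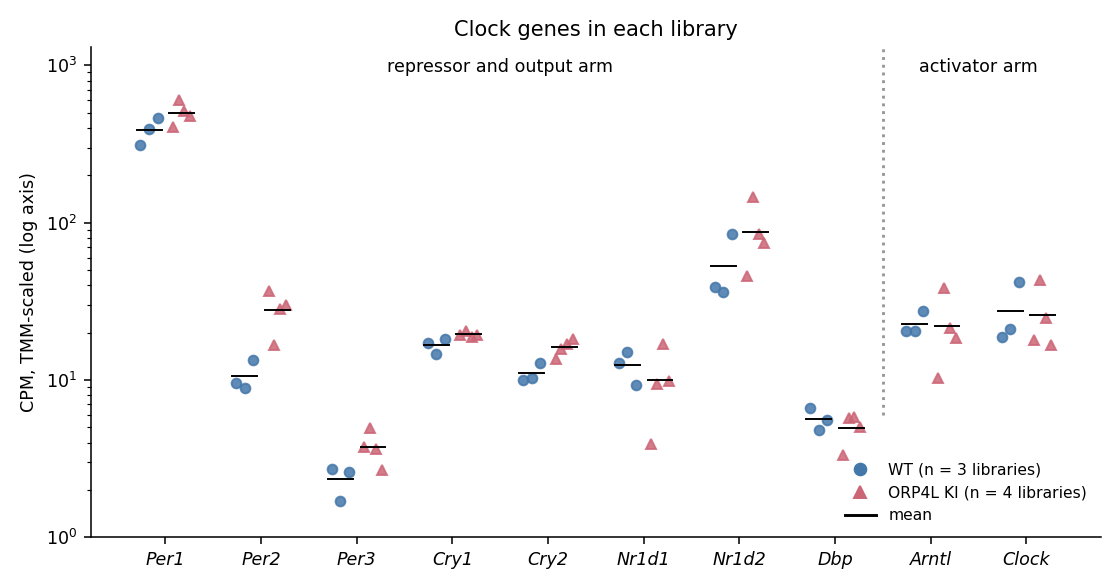
CPM scaled by TMM (log axis) of the 10 clock genes in each library, with circles for the 3 WT and triangles for the 4 ORP4L KI libraries and a bar for each group's mean. Per2 runs from 8.93 to 13.3 CPM in WT and from 16.6 to 36.8 CPM in ORP4L KI, while Arntl and Clock of the activator arm overlap between the groups.

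The other PER genes were higher on average with overlapping groups. Per1 (chromosome 11, 69095108 to 69109965, plus strand), the most abundant member, read 312, 394 and 465 CPM in WT and 406, 601, 515 and 474 CPM in ORP4L KI. In ORP4L KI, 3 of the 4 libraries were above all WT libraries, and replicate 1 fell between WT replicates 2 and 3. The log2 fold change of Per1 was 0.35 (SE 0.23). Per3 (chromosome 4, 150997018 to 151044707, minus strand) was scarce, at 2.73, 1.70 and 2.60 CPM in WT and 3.77, 4.93, 3.62 and 2.67 CPM in ORP4L KI. Only ORP4L KI replicate 4 lay within the WT range of Per3, whose log2 fold change was 0.68 (SE 0.34).

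The cryptochromes, the partners of PER in repression, differed little but evenly. Cry1 (chromosome 10, 85131700 to 85185054, minus strand) was at 17.2, 14.5 and 18.1 CPM in WT and at 19.4, 20.4, 18.8 and 19.2 CPM in ORP4L KI, a log2 fold change of 0.23 (SE 0.19). Cry2 (chromosome 2, 92403646 to 92434085, minus strand) was at 10, 10.3 and 12.8 CPM in WT and at 13.6, 15.7, 16.9 and 18.3 CPM in ORP4L KI, a log2 fold change of 0.55 (SE 0.21). For both genes all ORP4L KI libraries read above all WT libraries, by narrow margins. With Per2, 3 of the 10 members showed this order and 0 showed the opposite one. Among all genes tested, 6.43% lay wholly above WT and 7.38% wholly below, and nothing is read from the comparison because the members were picked on this contrast. With total counts in place of TMM only Per2 kept groups that do not overlap, and the log2 fold change of Cry1 was then 0.081. Under that scaling the median of all genes went from 0.01 to -0.13 on the log2 scale.

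The activator arm showed no common difference. Arntl (chromosome 7, 113178471 to 113314126, plus strand) was at 20.4, 20.4 and 27.4 CPM in WT and at 10.3, 38.2, 21.5 and 18.6 CPM in ORP4L KI. The lowest and the highest Arntl levels were both in ORP4L KI, in replicates 1 and 2. Clock (chromosome 5, 76209868 to 76305603, minus strand) was at 18.8, 20.9 and 42.1 CPM in WT and at 18.0, 43.4, 24.9 and 16.7 CPM in ORP4L KI. WT replicate 3 and ORP4L KI replicate 2 were the high libraries for Clock. The log2 fold changes were -0.03 (SE 0.38) for Arntl and -0.08 (SE 0.40) for Clock, and neither kept its sign when 1 library was left out. Without ORP4L KI replicate 2 they were -0.45 and -0.48, without ORP4L KI replicate 1 they were 0.20 and 0.05, and without WT replicate 3 they were 0.12 and 0.37. Without ORP4L KI replicate 4 they were 0.03 and 0.07.

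The REV-ERB genes went in opposite directions on average, with groups that overlap. Nr1d1 (chromosome 11, 98767932 to 98775377, minus strand) was at 12.8, 15.1 and 9.27 CPM in WT and at 3.90, 9.48, 16.9 and 9.89 CPM in ORP4L KI, where replicate 1 was lowest and replicate 3 highest of all. Nr1d2 (chromosome 14, 18204056 to 18239106, minus strand) was at 39.1, 36.4 and 84.5 CPM in WT and at 45.6, 144, 85.2 and 74.3 CPM in ORP4L KI. As with Clock, WT replicate 3 and ORP4L KI replicate 2 were each the highest of their group for Nr1d2. The log2 fold change was -0.30 (SE 0.42) for Nr1d1 and 0.71 (SE 0.42) for Nr1d2. Nr1d1 was at -0.04 without ORP4L KI replicate 1 and at -0.68 without replicate 3, and Nr1d2 at 0.33 without ORP4L KI replicate 2 and at 1.21 without WT replicate 3.

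Dbp, the D-box activator of clock output (chromosome 7, 45705100 to 45710203, plus strand), was at 6.65, 4.78 and 5.55 CPM in WT and at 3.35, 5.75, 5.80 and 5.04 CPM in ORP4L KI. Only replicate 1 of ORP4L KI was outside the WT range of Dbp, below it, and the log2 fold change was -0.18 (SE 0.29). Dbp overlaps Sphk2 on the opposite strand by 741 bases, and Nr1d1 overlaps Thra by 1075 bases, also on opposite strands. How the reads were assigned by strand is not stated, so reads from these stretches cannot be told apart. Thra and Sphk2 had log2 fold changes of -0.00 (SE 0.23) and 0.12 (SE 0.23).

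The median log2 fold change over the 10 members was 0.29, with 6 higher and 4 lower in ORP4L KI. Among all genes tested the median was 0.01, and 51.5% were higher. The 6 higher members were the PER and CRY genes and Nr1d2, and the 4 lower ones were Nr1d1, Dbp, Arntl and Clock.

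**Figure D2:**
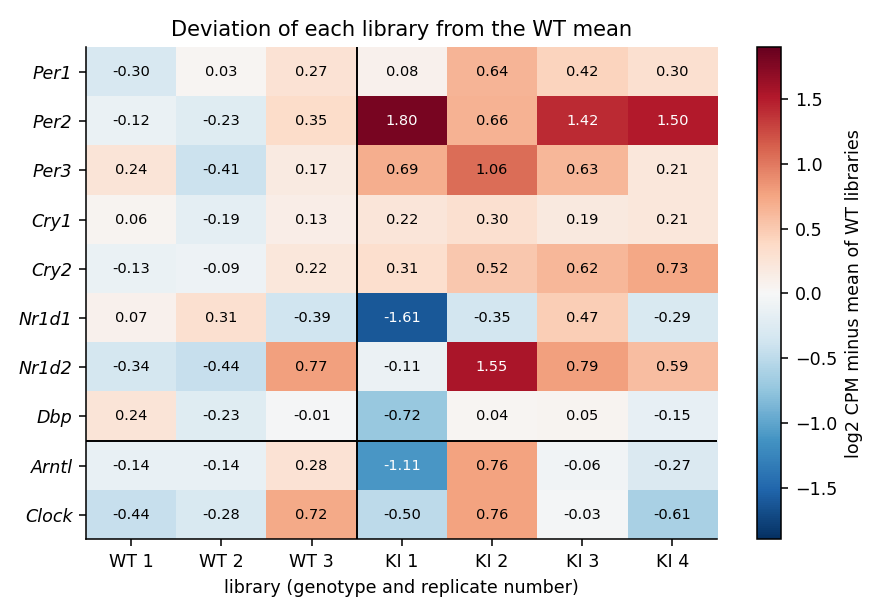
Difference in log2 CPM of each of the 10 clock genes in each library (columns, WT 1 to 3 and KI 1 to 4) from the mean of the WT libraries, with red above and blue below that mean. Per2 is above by 1.80 in KI 1, 0.66 in KI 2, 1.42 in KI 3 and 1.50 in KI 4, while Arntl ranges from -1.11 in KI 1 to 0.76 in KI 2.

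The 2 arms were then compared within each library, as the mean log2 CPM of the repressor and output arm minus that of Arntl and Clock. This arm contrast was -0.27, -0.46 and -0.83 in WT and 0.37, -0.73, 0.10 and 0.31 in ORP4L KI. Replicates 1, 3 and 4 of ORP4L KI were above all WT libraries, and replicate 2 lay inside the WT range. The mean was -0.52 ± 0.29 (SD, n = 3) in WT and 0.01 ± 0.51 (SD, n = 4) in ORP4L KI, a difference of 0.53 on the log2 scale. The repressor and output arm alone was 4.07 ± 0.17 in WT and 4.47 ± 0.23 in ORP4L KI, and the activator arm 4.59 ± 0.44 and 4.46 ± 0.67, in mean log2 CPM. Without Per2 the difference in the arm contrast was 0.40, without Nr1d1 and Nr1d2 it was 0.62, and without ORP4L KI replicate 2 it was 0.78.

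The ratio of Per2 to Arntl in CPM was 0.473, 0.437 and 0.487 in WT, a narrow range. In ORP4L KI it was 3.56, 0.434, 1.31 and 1.61. ORP4L KI replicate 2 thus had the WT ratio, its Per2 and its Arntl both being above the WT libraries, and the other 3 libraries had Per2 above Arntl.

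The spread among libraries of 1 genotype divided the members into quiet and variable genes. The pooled SD within groups was 0.11 on the log2 scale for Cry1 and 0.18 for Cry2, against 0.38 for the median gene tested. It was 0.42 for Per2, 0.62 for Arntl, 0.63 for Clock, 0.68 for Nr1d2 and 0.70 for Nr1d1. Cry1 was at percentile 2.37 of all genes tested for this spread, and Nr1d1 at percentile 86.3.

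Libraries also differed in how they represent long and short transcripts, a measure added after the data were seen. The median log2 deviation of 1347 genes with transcripts of at least 6078 bases, minus that of 1349 genes with transcripts of at most 1102 bases, was -0.29, -0.35 and 0.99 in WT and -0.75, 0.73, -0.01 and -0.31 in ORP4L KI. The high libraries were WT replicate 3 and ORP4L KI replicate 2, the same that were highest of their group for Clock and Nr1d2. They also had the lowest arm contrast of their group, -0.83 and -0.73, and within ORP4L KI the contrast fell as the index rose. The granulocyte marker share of ORP4L KI, 12.2%, 1.14%, 3.10% and 4.94% in replicates 1 to 4, ran in the reverse order of the index. Among these libraries the index and the granulocyte share thus cannot be told apart. ORP4L KI replicate 1, with the highest contrast, also had the lowest T-cell marker share of all libraries, 0.0929%. Clock, at 9744 bases, is itself among the long transcripts. The part of transcript length or of granulocyte RNA in the arm contrast was not tested. With this index as a covariate in the fit, the log2 fold change was 0.90 (SE 0.13) for Nr1d2, 0.09 (SE 0.16) for Clock and -0.01 (SE 0.22) for Arntl. Nr1d2 was the 1 member called at an adjusted p under 0.05 in that fit, which called 3.13% of all genes. The standard errors of these 3 members were below those without the covariate, as were those of Per1, Per3, Cry1, Cry2 and Dbp. Those of Per2 and Nr1d1 were not lower, and Clock changed sign. Per2 was at 1.32 (SE 0.30) and Per1 at 0.42 (SE 0.14) in that fit. The index was made from these same libraries, so nothing is read from the call or the standard errors of that fit.

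**Figure D3:**
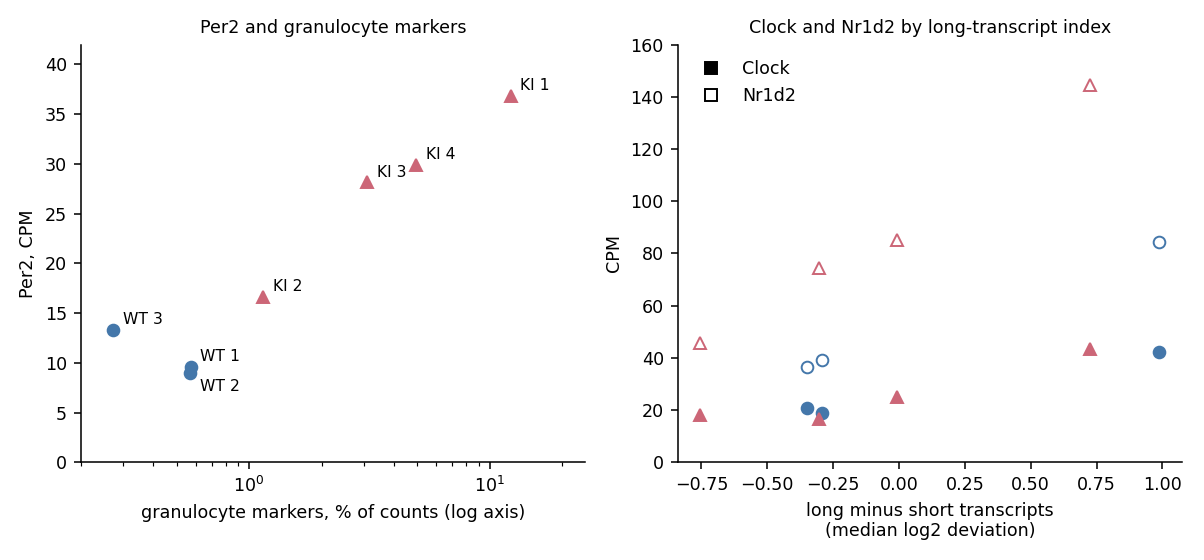
Left, Per2 in CPM against the summed share of 14 granulocyte markers in percent of all reads (log axis). Right, CPM of Clock (filled) and Nr1d2 (open) against the difference between long and short transcripts on the log2 scale, with circles for the 3 WT and triangles for the 4 ORP4L KI libraries in both. In ORP4L KI the order of Per2 is that of the granulocyte share, from 1.14% to 12.2%, and in each group Clock and Nr1d2 are highest in the library with the highest index, 0.99 in WT and 0.73 in ORP4L KI.

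Granulocyte markers moved with Per2 among the ORP4L KI libraries. Their share was 12.2%, 1.14%, 3.10% and 4.94% in replicates 1 to 4, and Per2 followed the same order, while in WT the library with the lowest share, replicate 3 at 0.273%, had the highest Per2. Of the 14 granulocyte markers, 12 passed an unadjusted p under 0.01 with a log2 fold change over 1 upward, and the median log2 fold change was 4.04. ORP4L KI replicate 2, with the lowest granulocyte share of its group, had Per2 at 16.6 CPM against 8.93 to 13.3 CPM in WT. Its share of 1.14% was still above the highest WT share, 0.571%. Without replicate 1, the library richest in these markers, the log2 fold change of Per2 was 1.22 (SE 0.28). Set against the mean of the T-cell markers in each library, with replicate 1 included, the log2 fold change of Per2 was 1.39. This scaling does not take out RNA from granulocytes. The part of granulocyte RNA in the Per2 difference was not tested.

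Xist, the RNA of the inactive X chromosome of female cells, was at 373 CPM in WT replicate 1 and at 391 and 651 CPM in ORP4L KI replicates 1 and 2, against 15.7 to 22.3 CPM in the other libraries. Within the libraries with high Xist the difference of Per2 was 1.35 on the log2 scale (1 WT and 2 ORP4L KI libraries), and within the others it was 1.40 (2 and 2). In both sets the ORP4L KI libraries were above WT, which follows from the order over all libraries on which Per2 was picked. The arm contrast differed by 0.08 in the first set and 0.85 in the second.

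Levels were compared between genes on the deposited RPKM, which is per length of the longest transcript. Averaged over the 7 libraries, Per1 was highest at 97.5 ± 24.4 RPKM (SD, n = 7), followed by Nr1d2 at 16.0 ± 9.29, Arntl at 8.004 ± 3.61, Cry1 at 6.06 ± 0.83 and Nr1d1 at 4.06 ± 1.64 RPKM. Cry2 at 3.47 ± 0.77, Per2 at 3.38 ± 1.53, Dbp at 3.19 ± 0.85 and Clock at 2.78 ± 1.42 RPKM were close to each other, and Per3 was lowest at 0.526 ± 0.190 RPKM. Per1 exceeded Nr1d2 by 6.72-fold, Nr1d2 exceeded Arntl by 1.91-fold and Clock exceeded Per3 by 4.35-fold, each in 7 of 7 libraries (exact two-sided sign-flip permutation test, p = 0.0156, the smallest it can give, adjusted p = 0.0469 over 9 pairs of neighbours). The other 6 pairs of neighbours did not differ beyond their spread by this test, with adjusted p from 0.105 to 0.969. By group means Per2 ranked 9 of 10 in WT and 5 in ORP4L KI.

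**Figure D4:**
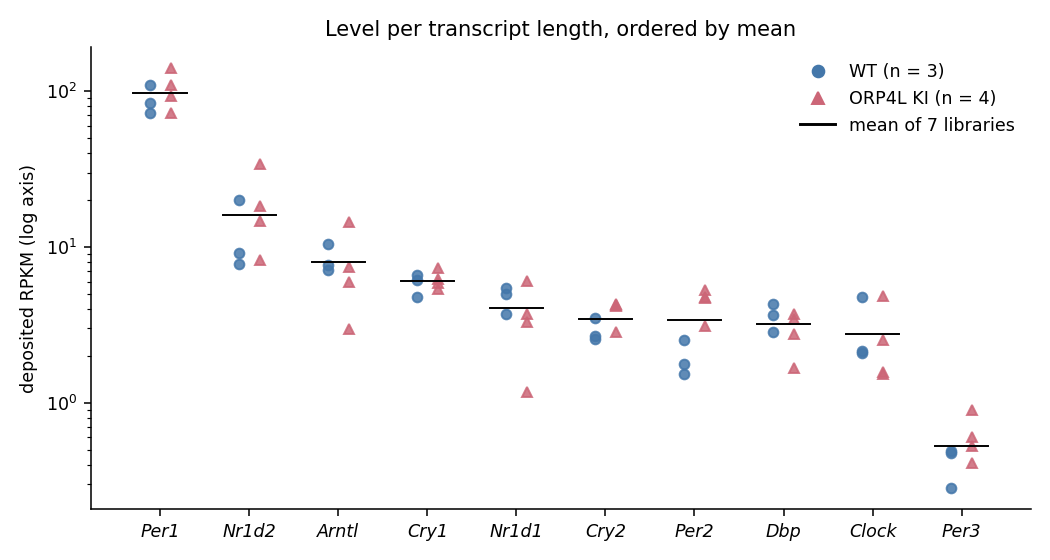
Deposited RPKM (log axis) of the 10 clock genes, ordered by the mean of the 7 libraries (bar), with circles for WT and triangles for ORP4L KI. Per1 averages 97.5 RPKM and Per3 0.526 RPKM, and the genes from Arntl to Clock lie between 8.004 and 2.78 RPKM on average.

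The remaining clock genes were read from a list of 19, of which 16 passed the filter. The edgeR quasi-likelihood test called 0 of the 16 at an adjusted p under 0.05, and DESeq2 called 0. At an unadjusted p under 0.05 there were 2 of 16, beside 13.7% of all genes, a share near the background. In ORP4L KI 11 were higher and 5 lower, with a median log2 fold change of 0.29, equal to that of the members and above the 0.01 of all genes.

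Hlf, a D-box factor of the same family as Dbp, read 2.11, 2.14 and 3.30 CPM in WT and 3.47, 6.57, 5.46 and 4.79 CPM in ORP4L KI. Its groups did not overlap, and the log2 fold change was 1.01 (SE 0.34, adjusted p = 0.203 by the edgeR quasi-likelihood test). With the long transcript index as a covariate it was 1.12 with an adjusted p of 0.0472, where 421 of all genes passed, and over the other alternatives and this one its adjusted p ran from 0.0472 to 0.602. Tef, a further D-box factor of that family, was at 15.5 to 23.0 CPM in WT and 18.4 to 35.7 CPM in ORP4L KI, a log2 fold change of 0.53 (SE 0.27, adjusted p = 0.442). Hlf and Tef thus had values above WT on average, where Dbp did not.

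Bhlhe41 and Bhlhe40 (DEC2 and DEC1) compete with the activator for E-boxes. Bhlhe41 read 7.45, 5.09 and 2.74 CPM in WT and 14.1, 9.26, 9.25 and 8.21 CPM in ORP4L KI, without overlap, with a log2 fold change of 1.00 (SE 0.36, adjusted p = 0.254 by edgeR). Bhlhe40 was abundant, at 605 to 788 CPM in WT and 511 to 1553 CPM in ORP4L KI, where replicate 1 was below all WT libraries and the other 3 above them. Ciart, whose 3 E-boxes are shown above, was at 7.64 to 10.3 CPM in WT and 6.15 to 17.9 CPM in ORP4L KI, a log2 fold change of 0.48 (SE 0.37). An E-box in the same window was also matched before Tef and Bhlhe41.

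Among the ROR receptors, which activate Arntl from the element that NR1D1 and NR1D2 occupy, Rora was at 64.5, 76.4 and 128 CPM in WT and 50.3, 185, 106 and 99.6 CPM in ORP4L KI. Rora was highest in WT replicate 3 and ORP4L KI replicate 2, as were Clock and Nr1d2. Npas2, a relative of Clock, stayed below 1 CPM in every library. Arntl2, Rorb and Fbxl21 did not pass the filter.

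Kinases and ubiquitin ligase subunits set the lifetime of PER and CRY proteins. Csnk1d, Csnk1e, Gsk3b, Btrc and Fbxw11 lay between log2 fold changes of -0.24 (Btrc) and 0.32 (Gsk3b), and 0 of the 6 genes tested from that list were called or passed an unadjusted p under 0.05 by edgeR, with 0 called by DESeq2. Timeless, a partner of the replication fork in mammals, had a log2 fold change of -0.29 (SE 0.19) and Nfil3, the repressor at D-boxes, 0.13 (SE 0.20).

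**Figure D5:**
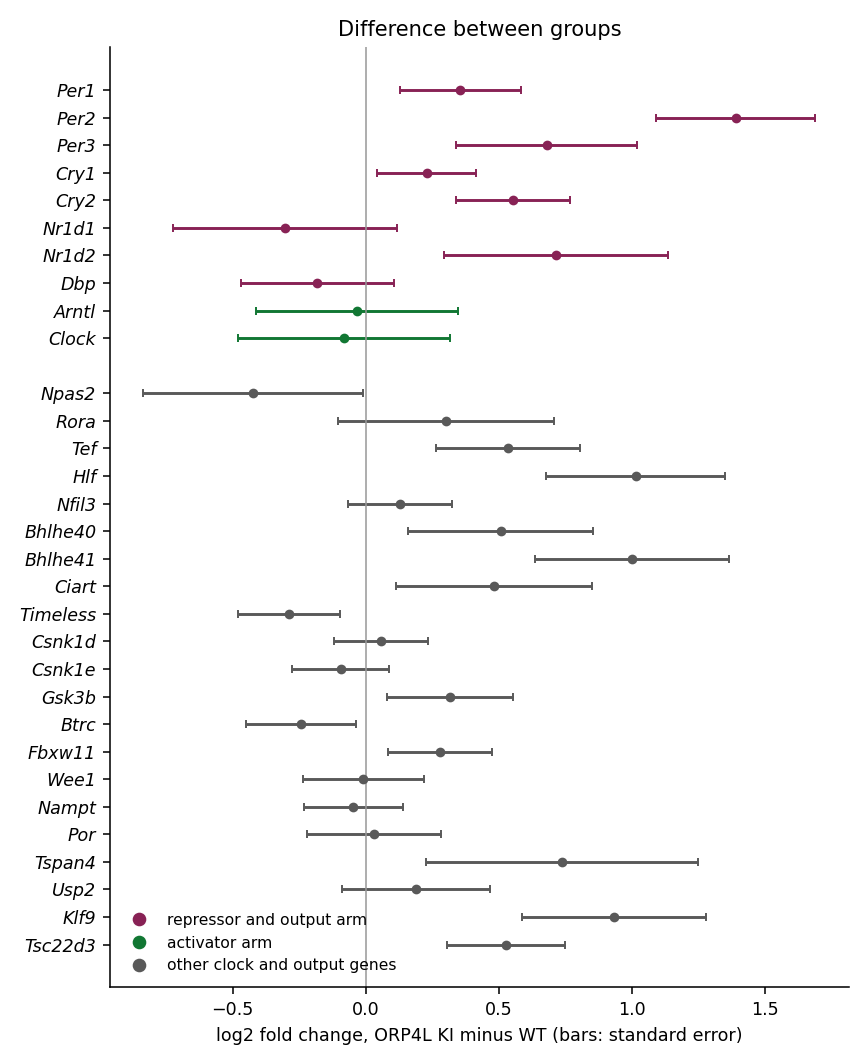
Fitted log2 fold change, ORP4L KI minus WT, with its standard error as a bar, for the 10 clock genes (coloured by arm) and for 21 further clock and output genes that passed the filter (grey). Per2 is highest at 1.39, and Hlf and Bhlhe41 follow at 1.01 and 1.00.

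A list of 7 genes that the clock drives in many tissues was tested in full, with 5 higher, 2 lower and a median log2 fold change of 0.19. The edgeR test called 0 at an adjusted p under 0.05, and DESeq2 called 0. At an unadjusted p under 0.05 there were 2 of 7, beside 13.7% of all genes. These 2 were Klf9 and Tsc22d3, both also known as targets of the glucocorticoid receptor. Klf9 was at 14.5, 13.6 and 23.3 CPM in WT and at 22.5, 54.0, 27.3 and 27.0 CPM in ORP4L KI, a log2 fold change of 0.93 (SE 0.34, adjusted p = 0.262). With the long transcript index as a covariate it was 1.04 with an adjusted p of 0.0240, and the range over all alternatives was 0.0240 to 0.619. Without replicate 2, its highest library, the log2 fold change of Klf9 was 0.56. Tsc22d3 was at 268, 261 and 266 CPM in WT and at 482, 291, 417 and 336 CPM in ORP4L KI. All ORP4L KI libraries were above WT for Tsc22d3, with a log2 fold change of 0.53 (SE 0.22, adjusted p = 0.332). Wee1, Nampt, Por and Usp2 lay between -0.05 and 0.19, and Tspan4 was at 0.74 (SE 0.51, adjusted p = 0.610).

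Genes that acute signals induce were read from 2 lists beside the members, since Per1 and Per2 also answer to such signals. Of 12 glucocorticoid-induced genes, 9 were higher and 3 lower, with a median log2 fold change of 0.44. The edgeR test called 0 of them at an adjusted p under 0.05, and DESeq2 called 1, beside 5.83% of all genes. At an unadjusted p under 0.05 there were 4 of 12, beside 13.7% of all genes. They include Klf9 and Tsc22d3, which are also in the output list above, so the counts of both lists share these genes. Fkbp5, a feedback inhibitor of the glucocorticoid receptor, read 53.3, 42.3 and 46.4 CPM in WT and 90.1, 112, 78.3 and 63.4 CPM in ORP4L KI, without overlap (log2 fold change 0.86, SE 0.23, adjusted p = 0.126 by edgeR and 0.0155 to 0.447 over the alternatives). Of 13 immediate-early genes, 6 were higher and 7 lower, with a median of -0.10, and 0 were called by either tool or passed an unadjusted p under 0.05. The part of hormone or stress in the Per2 difference was not tested.

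The genes whose pattern over the 7 libraries was most like that of Per2, by the root-mean-square difference of log2 CPM after centring each gene, were Fbxo30 (0.102), Golim4 (0.140), Acsl1 (0.162), Reck (0.195) and Rasa2 (0.206). Fbxo30 read 8.82, 8.49 and 11.7 CPM in WT and 29.5, 13.1, 23.3 and 28.0 CPM in ORP4L KI, with replicate 2 the lowest of its group as for Per2. No clock gene was among the nearest, and the closest member was Cry2, at 0.539 and rank 670 of 13461. This measure includes the difference between genotypes on which Per2 was picked. With each gene centred within its group instead, Cry1 (0.361, rank 2266) was closer to Per2 than Cry2 (0.367, rank 2479), and Fbxo30 was at rank 2. Over all 7 libraries Nr1d1 and Arntl were far from Per2, at ranks 12182 and 11430.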

How the data were processed

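RNA sequencing data of T-cells from 3 WT and 4 ORP4L KI mice were used, grouped by the genotype and replicate number of the sample labels. The authors trimmed adapters, discarded short reads, mapped to a mouse mRNA reference with FANSe3, merged splice variants and deposited the raw read count per gene without normalization. They also deposited RPKM values, made with the length of the longest transcript, and that transcript length in bases. The submitters' notes name build mm10. Versions, strand settings and the handling of reads with several matches are not given in the sources used here.

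Counts were tested in R 4.3.3 with edgeR 4.0.16 (filterByExpr, minimum count 10, minimum total 15; TMM; quasi-likelihood test without covariates) over 13462 genes, with Benjamini-Hochberg adjusted p-values over all of them. No other threshold than an adjusted p under 0.05, or an unadjusted p under 0.01 with a log2 fold change over 1, was used for calls. Counts at an unadjusted p under 0.05 are given beside the calls and are not calls. Log2 CPM used a prior count of 2. Levels were ordered on log2(RPKM + 0.1). Alternatives were DESeq2 size factors, total counts, no filter, DESeq2 1.42.0's Wald test, each replicate left out and a replicate block. Xist state, T-cell marker scaling and the long transcript index were added after the data were seen. The edgeR test was tested on simulated data of 13253 genes, 194 of them shifted by 2 on the log2 scale, and recovered 163 (84.0%) at the adjusted threshold beside 10 false calls. On the same simulated data DESeq2's Wald test recovered 179 (92.3%) beside 46 false calls, more false calls than edgeR. Each gene was simulated on its own, without shifts shared across a library, and the simulated shift exceeded the log2 fold change of every member. These rates may therefore not hold for the real libraries or for the members. A count of 0 was bounded at 3 reads, which covers counting error only. No pair of libraries agreed within sampling noise. The members and gene lists were chosen with earlier results of these data known. The genes named are the members, the further clock and output lists (2 of their genes are not reported here), Osbp2, the overlapping neighbours, the 5 genes nearest to Per2, and, as a list with few calls, Fkbp5. Xist was added after its values were seen. Python 3.11.15 ran the remaining steps, with SciPy 1.17.1, Matplotlib 3.10.9 and pandas 2.3.3.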

Additional observations from a re-analysis of the deposited data

Results flagged for a closer look

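Among 45 genes examined in the ORP4L KI group for a library far from the other 3 (Dixon's 95% critical value), 3 were marked, where chance alone gives about 1 in 20, or 2.25. Klf9 was at 54.0 CPM in ORP4L KI replicate 2 against 22.5 to 27.3 CPM in the others. Usp2, a ubiquitin protease with daily rhythm, was at 38.6 CPM in replicate 4 against 23.0 to 25.5 CPM in the others. Arntl2 was at 0.0609 CPM in replicate 1, which is 1 read, against 0 in the others. None of the 10 members was marked.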

How the results depend on the processing

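The number of genes called at an adjusted p under 0.05 was 3 with edgeR and TMM and also 3 with DESeq2 size factors, 113 with total counts, 784 by the Wald test of DESeq2, 176 with no filter on low counts, 48 with the replicate block, 0 with Xist state (1544 at an unadjusted p under 0.05) and 421 with the long transcript index as a covariate. It ranged from 0 to 342 over fits that left out 1 library: 342 without ORP4L KI replicate 2, 1 without replicate 3, and 0 without ORP4L KI replicate 4 or any WT library. With both the fold and the unadjusted p, 630 genes were called, and 328 to 805 with 1 library left out, the lowest without WT replicate 2. Total counts also moved the higher share of these calls from 50.8% to 40.3%. The cause of these shifts was not tested.

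The log2 fold change of Per2 stayed positive under all 15 alternatives, from 1.20 to 1.59. Those of the other members kept their sign in 15 of 15, except Arntl (3 changes) and Clock (5 changes). The arm contrast stayed positive, from 0.38 to 0.78 with 1 library left out, and no filter or the Wald test gives no other value for it. Pairs of neighbours in order numbered 3 over all 7 libraries, 6 within WT and 3 to 4 with 1 library left out, where the count is of pairs in order in every library.

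Genes near 0 reversed: Nfil3 (-0.0055), Csnk1d (-0.082) and Por (-0.12) with total counts, Wee1 with DESeq2 size factors (0.0039) and its Wald test (0.0029), Csnk1d (-0.021), Wee1 (0.026) and Por (-0.17) under the block, and Por (-0.039) with the long transcript index. With 1 library left out, ranges spanning 0 were -0.093 to 0.65 for Rora, -0.018 to 0.11 for Csnk1d, -0.17 to 0.026 for Csnk1e, -0.12 to 0.098 for Wee1, -0.16 to 0.028 for Nampt, -0.18 to 0.18 for Por and -0.023 to 0.45 for Usp2.

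Same-numbered mice had correlations of their deviations of 0.15, -0.53 and -0.0018, which gave no sign of pairing, and ORP4L KI replicate 4 had no partner. So few libraries cannot show whether the samples were paired. With the replicate block the log2 fold change of Per2 was 1.30 and the arm contrast 0.43, with 466 genes called by fold and unadjusted p. Depth limits Per3 most among the members, at 27 to 90 reads per library, and Arntl2, Rorb and Fbxl21 could not be tested.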
